A study of Mus musculus with 6 samples.

Results

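The mitochondrial ribosomal proteins described here are the 78 genes, of 22939 in the count table, whose symbol begins Mrpl or Mrps followed by a number, with pseudogenes left out. They were read in RNA-seq libraries of mouse regulatory T (Treg) cells made in culture, 3 of control cells (ctrl-Treg cells) and 3 of cells given sorafenib (Sora-Treg cells), to see how this kinase inhibitor, a drug for liver cancer, changed their levels. According to the study's methods, naive CD4+ T cells taken from Foxp3-GFP knock-in mice, in which green fluorescent protein marks cells expressing the Treg transcription factor Foxp3, were activated with anti-CD3 and anti-CD28 antibodies in the presence of TGF-β1 and antibodies that block IFN-γ and IL-4. Sora-Treg cells received Sora in addition, and the GFP+ cells of both cultures were sorted. The mice were of C57BL/6J background, and all 6 libraries carry the reporter allele. The sample labels give neither the Sora dose, the time in culture, the age of the mice nor whether the replicates come from separate mice or cultures. The p-values therefore measure the spread between these libraries, which may be technical.

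Mitochondria keep a ribosome of their own, the mitoribosome, which translates the few respiratory chain and ATP synthase subunits that mitochondrial DNA still encodes. Its RNAs come from mitochondrial DNA, whereas all its proteins are encoded in the nucleus, made on cytosolic ribosomes and imported. It has a small subunit, which binds and decodes the mRNA, and a large subunit, which joins amino acids into the chain, and each holds proteins with a counterpart in the bacterial ribosome beside proteins that were added in mitochondria.

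The libraries held between 30727686 and 37717324 counts, and 13463 genes had enough counts to be tested. The sorted cells carried the defining Treg and T cell markers. Foxp3 stood at 259 CPM (a library's counts put on a common total with the TMM factors of edgeR) in ctrl-Treg cells, against 272 CPM in Sora-Treg cells, and Ikzf2, Cd4, Cd3e, Il2ra and Ctla4 were all present. The 6 Treg and T cell markers together stood at 3605 to 3657 CPM in ctrl-Treg libraries, against 6301 to 6431 CPM in Sora-Treg libraries, with Il2ra and Ctla4 giving most of the difference. Markers of other cells were low. The 6 myeloid markers (Lyz2, Csf1r, Itgam, Adgre1, Cd68, Fcgr3) summed to 92.4, 92.1 and 24.6 CPM in ctrl-Treg cells, against 22.1, 42.5 and 20.6 CPM in Sora-Treg cells. The 4 B cell markers summed to between 1.53 and 2.39 CPM and to between 0.251 and 0.365 CPM, and the 2 CD8 markers to between 13.2 and 15.1 CPM and to between 12.6 and 13.8 CPM. No library had more than 1 count of the NK marker Klrb1c or more than 4 counts of any of 3 erythroid markers.

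All 78 members were tested, with 108 to 3457 counts per library. More of them fell than rose in Sora-Treg cells, and none changed by more than 2-fold. With edgeR's quasi-likelihood test and an adjusted p under 0.05, 39 members (50%) were lower and 9 (11.5%) were higher, and 30 did not pass. Among all tested genes, 59.6% passed this test in either direction (29.9% lower and 29.7% higher), so the share of members called (61.5%) was near the background and the share called lower was above it. The DEG limit of the study (adjusted p under 0.05 and over 2-fold) was passed by 11.3% of all tested genes (6.3% higher and 4.97% lower) and by 0 members. At an unadjusted p under 0.05, 42 members were lower and 10 higher. The median log2 fold change of the members was -0.17, against -0.0035 over all tested genes, and 58 of the 78 members lay below 0. The groups did not overlap in 69.2% of members (42 with all Sora-Treg libraries lower and 12 with all higher), against 63.7% of all tested genes (32% and 31.8%).

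The balance of higher to lower calls depended on how libraries were scaled. With library totals in place of TMM, the median of all tested genes moved to -0.12. Of all 13463 tested genes, 2862 were then higher and 5614 lower, against 3994 and 4028 with TMM. The members divided into 1 higher and 54 lower, so that the share of calls that were higher changed from 18.8% to 1.82%. A scaling factor shifts all genes nearly alike, so the distance between the median of the members and that of all tested genes, -0.16 with TMM, hardly depends on it, and over the other fits this distance ranged from -0.19 to -0.14. The 39 members called lower with TMM were all among the 54. Leaving out control replicate 3 gave 4 higher and 40 lower members, and leaving out sorafenib replicate 3 gave 5 higher and 37 lower. Across the 16 fits that were run, 30 members were lower in every fit and 1, Mrpl33, was higher in every fit. The matching share over all tested genes was not counted.

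**Figure D1:**
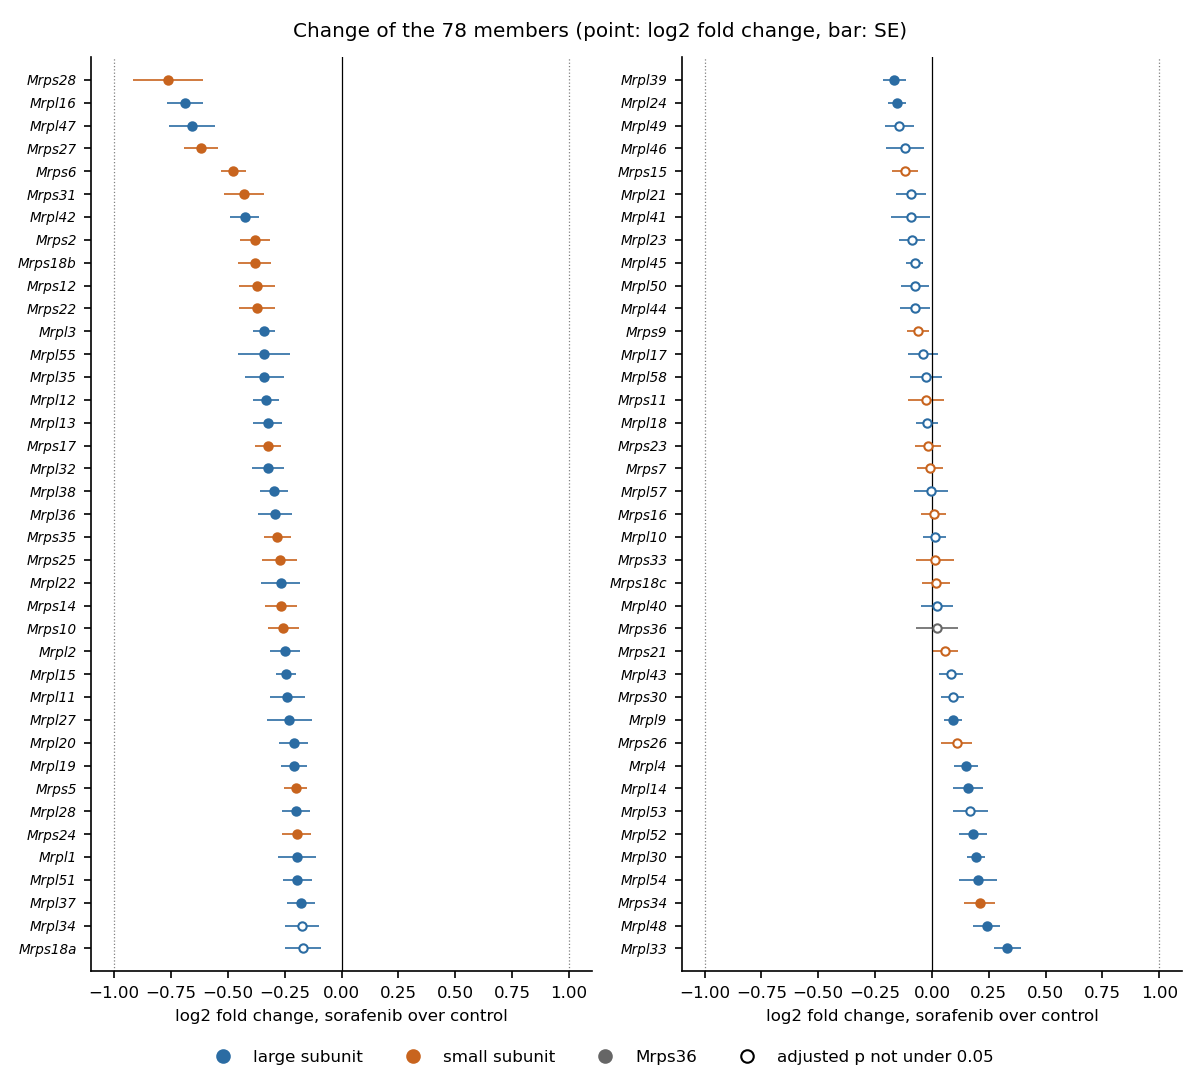
Log2 fold change of each member in Sora-Treg over ctrl-Treg cells (x axis, point, with the standard error as a bar), ordered from the largest decrease to the largest increase, with large subunit members in blue, small subunit members in orange and Mrps36 in grey. Filled points passed an adjusted p of 0.05 and dotted lines mark a 2-fold change. The 39 lower members reach -0.76 and the 9 higher members reach 0.33, and no point reaches a dotted line.

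Summed over the 78 members, the level was 2365, 2327 and 2351 CPM in ctrl-Treg cells, against 2190, 2141 and 2179 CPM in Sora-Treg cells. The groups did not overlap, and the mean of the sum was 2348 ± 19.3 against 2170 ± 25.5 CPM (SD, n = 3), a change of -7.57%. A share of all raw counts scales by library totals, without a TMM factor. By this measure the members took 0.244% ± 0.0027 (SD, n = 3) in ctrl-Treg cells, against 0.208% ± 0.0028 in Sora-Treg cells. The 87 cytosolic ribosomal protein genes also took a smaller share in Sora-Treg cells (13.9% in ctrl-Treg cells, against 12.8%). Their summed CPM changed by 0.205%, so the share also carries the shift between the 2 scalings. The marker lists of other cell types also differed between libraries, and their part in the result was not tested. In sorted but bulk RNA of this kind, fewer cells of a type and less of an RNA per cell cannot be told apart.

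Both subunits held more lower than higher members. Of the 51 large subunit members, 24 were lower and 8 higher (median log2 fold change -0.15), and of the 26 small subunit members, 15 were lower and 1 higher (median -0.23). The sum of the large subunit members was 1614 ± 9.61 against 1518 ± 16.1 CPM, a change of -5.98%, and that of the small subunit members was 715 ± 7.99 against 633 ± 13.7 CPM, a change of -11.4% (SD, n = 3). Mrps18a and Mrps30 were counted with the large subunit, where their proteins sit in spite of their symbols. Grouped by origin, 27 of 45 members with a bacterial counterpart were lower and 5 higher (median -0.20). With library totals these became 34 lower and 1 higher (median -0.32). Of 31 members added in mitochondria, 11 were lower and 4 higher (median -0.08), which with library totals became 19 lower and 0 higher (median -0.19). The differences between these groups of members were not tested.

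The largest decreases were in proteins of both subunits (gene positions are on GRCm38). The 8 decreases and 8 increases given by library were picked among called members without overlap, so the lack of overlap was set by the choice. Mrps28 (chromosome 3, 8802146 to 8923857), a small subunit protein, measured 7.85, 8.19 and 7.45 CPM in ctrl-Treg cells, against 6.06, 3.39 and 4.44 CPM in Sora-Treg cells. Its groups did not overlap, but the Sora-Treg libraries spread more than for any other member, with a coefficient of variation of 29.1%. The log2 fold change of Mrps28 was -0.76 ± 0.15 (SE, adjusted p = 0.000184 in edgeR), and it lay between -0.99 and -0.58 when each library was left out in turn. Mrpl16 (chromosome 19, 11770415 to 11774956), a large subunit protein kept from bacteria, measured 23.4, 21.2 and 22.0 CPM in ctrl-Treg cells, against 14.9, 12.9 and 13.6 CPM in Sora-Treg cells. Every Sora-Treg library was well below every ctrl-Treg library, with a fall of 38% (log2 fold change -0.69 ± 0.08, SE, edgeR adjusted p = 8.55e-08). Mrpl47 (chromosome 3, 32727497 to 32736755), the counterpart of a bacterial protein at the exit of the peptide tunnel, measured 10.3, 10.4 and 10.7 CPM in ctrl-Treg cells, against 6.89, 6.74 and 6.29 CPM in Sora-Treg cells. The replicates of both groups were close, and Mrpl47 fell by 36.6% (log2 fold change -0.66 ± 0.10, SE, edgeR adjusted p = 7.17e-06). Mrps27 (chromosome 13, 99344767 to 99415562), a small subunit protein with pentatricopeptide repeats, an RNA-binding fold, measured 22.6, 21.6 and 21.5 CPM in ctrl-Treg cells, against 14.3, 13.7 and 14.8 CPM in Sora-Treg cells. Its groups were far apart, with a fall of 34.9% (log2 fold change -0.62 ± 0.07, SE, edgeR adjusted p = 1.7e-07).

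Mrps6 (chromosome 16, 92058336 to 92112227), the counterpart of bacterial S6, measured 41.8, 41.2 and 39.8 CPM in ctrl-Treg cells, against 31.1, 27.9 and 29.4 CPM in Sora-Treg cells. It fell by 28.1% with no overlap (log2 fold change -0.48 ± 0.06, SE, edgeR adjusted p = 1.19e-07). Slc5a3, which shares exonic sequence with Mrps6 on the same strand, also had less RNA in Sora-Treg cells (74.1 against 50.3 CPM), so reads of these genes may not be separable. Mrps31 (chromosome 8, 22410449 to 22429669), a small subunit protein added in mitochondria, measured 19.3, 20.6 and 22.4 CPM in ctrl-Treg cells, against 17.0, 13.3 and 15.8 CPM in Sora-Treg cells. The gap between its groups was narrow beside its spread, and its log2 fold change was -0.43 ± 0.09 (SE, adjusted p = 0.000216 in edgeR). Mrpl42 (chromosome 10, 95480805 to 95501949), a large subunit protein added in mitochondria, measured 31.7, 30.6 and 32.4 CPM in ctrl-Treg cells, against 25, 21.9 and 23.7 CPM in Sora-Treg cells. It did not overlap between groups and fell by 25.5% (log2 fold change -0.43 ± 0.06, SE, edgeR adjusted p = 5.02e-06). Mrps2 (chromosome 2, 28465951 to 28471177), the counterpart of bacterial S2, measured 32.0, 30.5 and 34.0 CPM in ctrl-Treg cells, against 26.7, 23.8 and 23.5 CPM in Sora-Treg cells. The groups were again apart, with a log2 fold change of -0.38 ± 0.07 (SE, adjusted p = 2.83e-05 in edgeR). These 8 members kept their direction and passed the test in all 15 alternative fits.

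The remaining 31 lower members had log2 fold changes between -0.38 and -0.15. They included Mrps12 (-0.37), the counterpart of the bacterial decoding centre protein S12, Mrps22 (-0.37) and Mrpl3 (-0.34), and Mrpl24 (-0.15) had the smallest change. Calls at the edge of the threshold were less stable. Mrpl27 had a log2 fold change of -0.23 (edgeR adjusted p = 0.0479) with overlapping groups, and its adjusted p lay between 0.0975 and 0.222 without control replicate 1, control replicate 2, sorafenib replicate 2 or sorafenib replicate 3. Mrpl1 (-0.20, edgeR adjusted p = 0.04998) lost its call without control replicate 1, control replicate 2, sorafenib replicate 1 or sorafenib replicate 3, with an adjusted p between 0.0589 and 0.244. The lowest Sora-Treg value fell in sorafenib replicate 2 for 21 of the 39 lower members, and in each of the other replicates for 9.

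**Figure D2:**
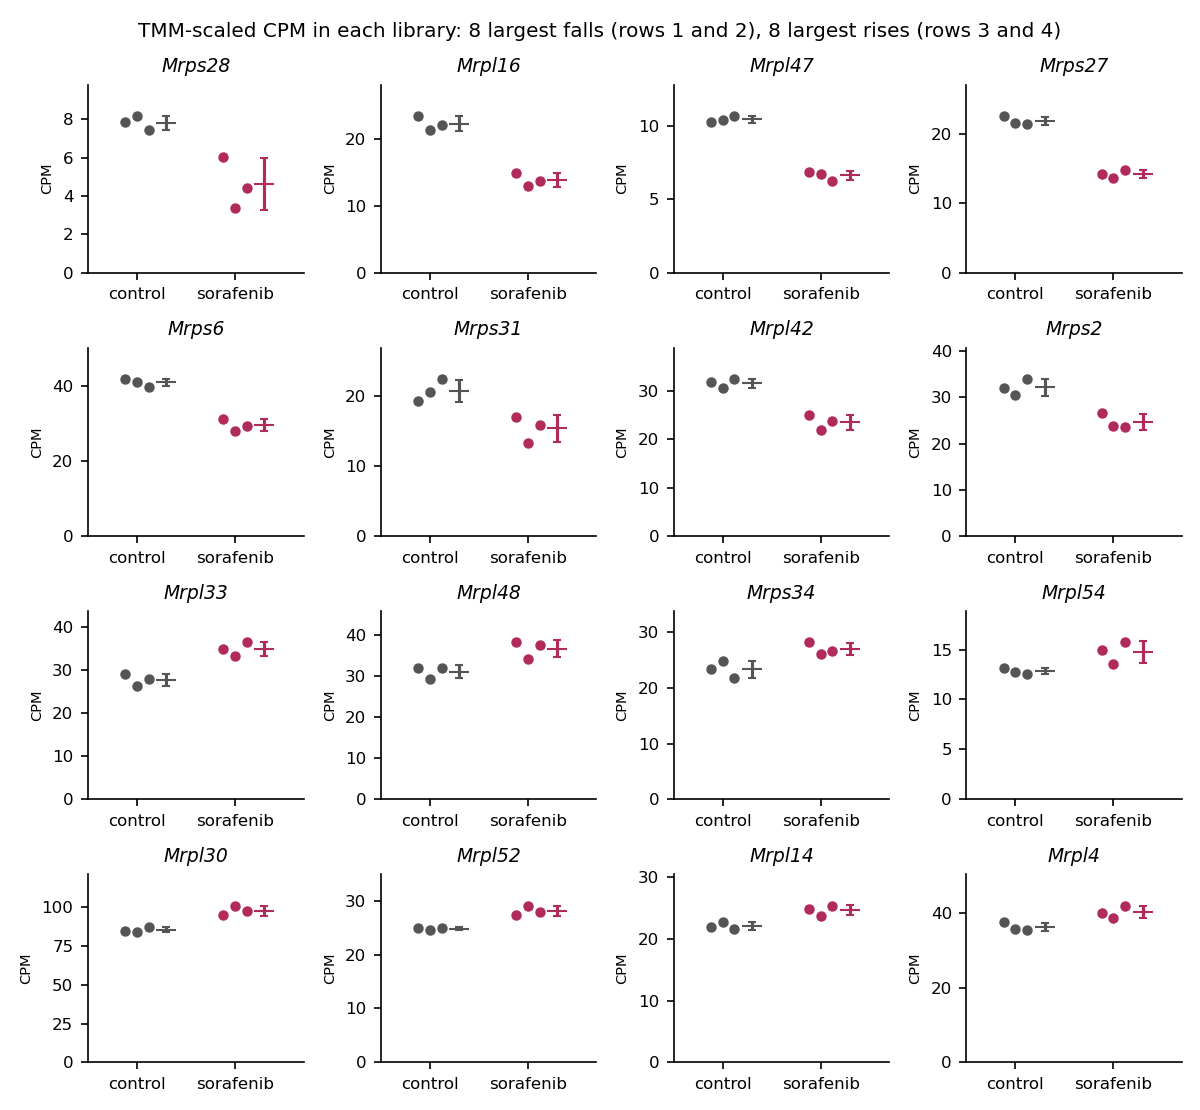
TMM-scaled CPM (y axis, from 0) in each library, with ctrl-Treg libraries in grey and Sora-Treg libraries in red. The mean with its SD (n = 3) is a bar beside the points. Panels hold the 8 largest decreases (upper rows) and the 8 largest increases (lower rows) among called members without overlap between groups. The absence of overlap was thus set by the choice of members. The decreases shown, down to -0.76 on the log2 scale, are larger than the increases shown, up to 0.33.

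The increases were smaller. Mrpl33 (chromosome 5, 31613951 to 31622644), a short protein of the large subunit with a bacterial counterpart, measured 29.1, 26.4 and 27.9 CPM in ctrl-Treg cells, against 35, 33.4 and 36.5 CPM in Sora-Treg cells. It rose by 25.8% with no overlap (log2 fold change 0.33 ± 0.06, SE, edgeR adjusted p = 4.75e-05). Mrpl48 (chromosome 7, 100545779 to 100608301), added to the large subunit in mitochondria, measured 32.0, 29.2 and 32.0 CPM in ctrl-Treg cells, against 38.2, 34.3 and 37.6 CPM in Sora-Treg cells. Its groups were apart and it rose by 18.2% (log2 fold change 0.24 ± 0.06, SE, edgeR adjusted p = 0.0013). Rab6a, which overlaps Mrpl48 on the opposite strand, stood at 93.1 CPM in ctrl-Treg and 129 CPM in Sora-Treg cells, and the sources used here do not say whether counting used strand. Mrps34 (chromosome 17, 24895120 to 24896289), the only small subunit member called higher with TMM scaling, measured 23.4, 24.9 and 21.7 CPM in ctrl-Treg cells, against 28.2, 26.1 and 26.7 CPM in Sora-Treg cells. Its groups did not overlap (log2 fold change 0.21 ± 0.07, SE, edgeR adjusted p = 0.0103), but without control replicate 3 it was 0.16 with an adjusted p of 0.0647. Mapk8ip3, on the opposite strand, covers 1309 of its 2064 exonic bases and stood at 318 CPM against 379 CPM. Nme3, on the same strand, covers 763 of these bases and stood at 4.33 CPM against 5.05 CPM. Mrpl30 (chromosome 1, 37890477 to 37898338), the counterpart of bacterial L30, measured 84.9, 84.1 and 87.0 CPM in ctrl-Treg cells, against 94.6, 101 and 97.1 CPM in Sora-Treg cells. The gap was wide for its spread, with a rise of 14.4% (log2 fold change 0.19 ± 0.04, SE, edgeR adjusted p = 0.000136).

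Mrpl52 (chromosome 14, 54426909 to 54429750), a large subunit protein added in mitochondria, measured 25, 24.5 and 24.9 CPM in ctrl-Treg cells, against 27.4, 29.1 and 27.9 CPM in Sora-Treg cells. No library of the groups overlapped (log2 fold change 0.18 ± 0.06, SE, edgeR adjusted p = 0.0145). Mrpl54 (chromosome 10, 81264722 to 81266926), of the same subunit and origin, measured 13.2, 12.7 and 12.6 CPM in ctrl-Treg cells, against 15.0, 13.6 and 15.7 CPM in Sora-Treg cells. The groups nearly met, and the log2 fold change of 0.20 ± 0.08 (SE, adjusted p = 0.0418 in edgeR) lost its call when any library except sorafenib replicate 2 was left out, with an adjusted p between 0.0586 and 0.174. Mrpl14 (chromosome 17, 45685722 to 45698495), the counterpart of bacterial L14, measured 21.8, 22.8 and 21.5 CPM in ctrl-Treg cells, against 24.8, 23.7 and 25.3 CPM in Sora-Treg cells. It was 0.16 ± 0.07 higher on the log2 scale (SE, adjusted p = 0.0396 in edgeR) and lost its call without control replicate 1, control replicate 3, sorafenib replicate 1 or sorafenib replicate 3, with an adjusted p between 0.0790 and 0.125. Mrpl4 (chromosome 9, 21001252 to 21008839), whose bacterial counterpart lines the peptide tunnel, measured 37.5, 35.9 and 35.5 CPM in ctrl-Treg cells, against 40.2, 38.7 and 42.1 CPM in Sora-Treg cells. Its groups were apart (log2 fold change 0.15 ± 0.05, SE, edgeR adjusted p = 0.0168), with an adjusted p of 0.0646 without control replicate 3 and 0.1003 without sorafenib replicate 3. Mrpl9 was called higher at the edge of the threshold (log2 fold change 0.09, edgeR adjusted p = 0.0482), and lost its call without any of the ctrl-Treg libraries or without sorafenib replicate 3, with an adjusted p between 0.0847 and 0.246. With library totals Mrpl9 was at -0.02 and the other 7 members of the increases besides Mrpl33 were between 0.03 and 0.13, none of which passed.

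**Figure D3:**
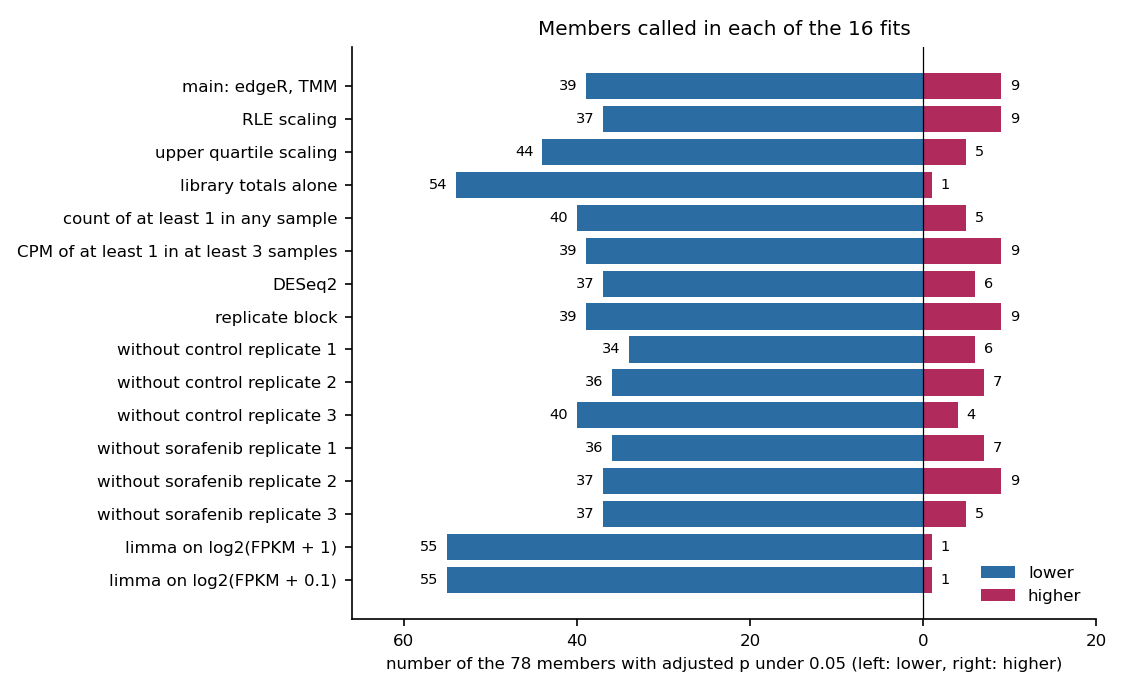
Number of the 78 members with an adjusted p under 0.05 (x axis, lower to the left in blue, higher to the right in red) in edgeR with TMM scaling and in 15 alternatives. Lower calls range from 34 to 55 and higher calls from 1 to 9, with the fewest higher calls where library totals or FPKM set the scale. In those fits all tested genes also had fewer higher than lower calls (2862 and 5614 with library totals).

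Of the 3 paralogs that resemble bacterial S18, only Mrps18b passed with TMM scaling in edgeR. Mrps18b (chromosome 17, 35910380 to 35916440), of the small subunit, measured 21.1, 20 and 20.7 CPM in ctrl-Treg cells, against 16.2, 15.6 and 15.6 CPM in Sora-Treg cells. It fell by 23.3% without overlap (log2 fold change -0.38 ± 0.07, SE, edgeR adjusted p = 9.03e-05). Mrps18a (chromosome 17, 46111004 to 46128908), of the large subunit, measured 23.8, 20.9 and 23.8 CPM in ctrl-Treg cells, against 19.8, 22.3 and 18.8 CPM in Sora-Treg cells. Its groups overlapped and it did not pass (log2 fold change -0.17 ± 0.08, SE, edgeR adjusted p = 0.0645), but it passed without control replicate 2 (adjusted p = 0.0287) and without sorafenib replicate 2 (adjusted p = 0.0123). Mrps18a was also called lower with upper quartile scaling, library totals, the filter of 1 count in any sample and both limma fits on FPKM (adjusted p from 0.00273 to 0.0422). Mrps18c (chromosome 5, 100798759 to 100804467), of the small subunit, measured 26.3, 26.6 and 25.4 CPM in ctrl-Treg cells, against 27.6, 25.7 and 25.9 CPM in Sora-Treg cells. These groups overlapped, and the log2 fold change was 0.02 ± 0.06 (SE, adjusted p = 0.833 in edgeR). Both limma fits on FPKM, which are scaled by library totals, called all 3 paralogs lower, with Mrps18c at -0.10 (limma adjusted p = 0.0434 and 0.0405). The difference between the paralogs was not tested.

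Several members are known for roles beside the structure of the mitoribosome. Mrpl12 (chromosome 11, 120484637 to 120488754), whose protein also binds the mitochondrial RNA polymerase, measured 51.4, 51.6 and 52.8 CPM in ctrl-Treg cells, against 45.6, 38.4 and 39.9 CPM in Sora-Treg cells. The Sora-Treg libraries spread more but all lay below, with a log2 fold change of -0.33 ± 0.06 (SE, adjusted p = 1.97e-05 in edgeR). Mrpl45 (chromosome 11, 97314923 to 97329920), which anchors the mitoribosome to the inner membrane, measured 86.5, 86.2 and 88.3 CPM in ctrl-Treg cells, against 85.1, 82.2 and 80.5 CPM in Sora-Treg cells. Its groups did not overlap, but its log2 fold change of -0.08 ± 0.04 did not pass (SE, adjusted p = 0.0917 in edgeR). Mrpl45 was called lower with upper quartile scaling (-0.11, adjusted p = 0.0138), library totals (-0.19, adjusted p = 0.000138) and both limma fits on FPKM (-0.18 and -0.19). Mrpl58 (chromosome 11, 115403724 to 115412674), a peptidyl-tRNA hydrolase that frees stalled mitoribosomes, measured 26.2, 23.2 and 22.5 CPM in ctrl-Treg cells, against 23.8, 23.4 and 23.5 CPM in Sora-Treg cells. Those groups overlapped, and the log2 fold change of Mrpl58 was -0.03 ± 0.07 (SE, adjusted p = 0.766 in edgeR). Mrps36 (chromosome 13, 100735940 to 100744659), now known as a component of the 2-oxoglutarate dehydrogenase complex in spite of its symbol, measured 20, 15.8 and 19.7 CPM in ctrl-Treg cells, against 17.4, 18.0 and 20.9 CPM in Sora-Treg cells. It also overlapped (log2 fold change 0.02 ± 0.09, SE, edgeR adjusted p = 0.842), with the largest coefficient of variation among ctrl-Treg libraries of any member (12.7%).

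Levels of different members were compared per length, as the FPKM values the authors deposited, which are scaled by library totals. In ctrl-Treg cells the median member stood at 18.3 FPKM and the range was 21-fold. The highest were Mrps21 (64.1 ± 1.75 FPKM), Mrpl52 (62.6 ± 0.829), Mrpl33 (62.0 ± 3.18), Mrpl12 (55.1 ± 0.744) and Mrps6 (54.6 ± 1.46), each as mean and SD over 3 libraries. The first 3 of these are within their spread of one another, as are Mrpl12 and Mrps6. In Sora-Treg cells the same genes stood at 61.5 ± 2.65, 65.5 ± 1.97, 72.0 ± 3.21, 40.4 ± 3.83 and 36.3 ± 2.05 FPKM, so that Mrpl33 ranked above Mrps21. In counts, Mrps21 (chromosome 3, 95862634 to 95871514) measured 30.5, 31.4 and 32.3 CPM in ctrl-Treg cells, against 34.0, 31.3 and 32.7 CPM in Sora-Treg cells. Its groups overlapped, and its log2 fold change was 0.06 ± 0.06 (SE, adjusted p = 0.412 in edgeR), which turns to -0.06 with library totals. The lowest members were Mrpl14 (3.05 ± 0.0823 FPKM), Mrpl1 (3.72 ± 0.225), Mrps25 (3.78 ± 0.323), Mrpl17 (3.93 ± 0.248) and Mrpl4 (4.47 ± 0.145), whose FPKM values rest on gene lengths of 4591 to 8452 bases. For Mrpl14 this length was 7525 bases, whereas its exons in the GENCODE M21 annotation cover 949 bases. In ctrl-Treg cells Mrpl14 stood at 22.0 CPM, against 26.0 CPM for the median member, so its rank depends on the length used. A ribosome holds most, but not all, of its proteins in equal numbers, and mRNA levels of the members were not equal on this scale.

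The 5 mitoribosome proteins without an Mrp symbol were divided. Gadd45gip1, of the large subunit, measured 40.7, 43.2 and 38.7 CPM in ctrl-Treg cells, against 45.5, 47.5 and 48.1 CPM in Sora-Treg cells. It rose without overlap (log2 fold change 0.20 ± 0.05, SE, edgeR adjusted p = 0.00158). Aurkaip1, of the small subunit, measured 46.9, 47.9 and 46.4 CPM in ctrl-Treg cells, against 50.8, 51.4 and 54.8 CPM in Sora-Treg cells. It also rose (log2 fold change 0.15 ± 0.05, SE, edgeR adjusted p = 0.00675), but had an adjusted p of 0.0540 without sorafenib replicate 3, and with library totals neither gene passed. Ptcd3, a pentatricopeptide repeat protein of the small subunit, measured 49.8, 49.8 and 48.3 CPM in ctrl-Treg cells, against 43.6, 45.4 and 41.7 CPM in Sora-Treg cells. It fell by 11.6% (log2 fold change -0.18 ± 0.05, SE, edgeR adjusted p = 0.00274) with no overlap. Chchd1, also of the small subunit, measured 29.6, 31.7 and 30.6 CPM in ctrl-Treg cells, against 25.6, 27.5 and 25.8 CPM in Sora-Treg cells. It was likewise lower in each Sora-Treg library (log2 fold change -0.22 ± 0.06, SE, edgeR adjusted p = 0.0035). Dap3, a GTP-binding protein of the small subunit, measured 109, 108 and 104 CPM in ctrl-Treg cells, against 100, 100 and 107 CPM in Sora-Treg cells, with overlap and no call (log2 fold change -0.06 ± 0.04, SE, edgeR adjusted p = 0.163). Dap3 was called lower with upper quartile scaling (-0.10, adjusted p = 0.0260), library totals (-0.18, adjusted p = 0.00027) and both limma fits on FPKM (-0.17 and -0.18).

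Genes that build and serve the mitoribosome also fell more often than they rose. Of 27 genes for its assembly and rRNA modification, 14 were lower and 1 higher (median log2 fold change -0.19). Mrm3, which methylates the rRNA of the large subunit, was the only DEG among them, at 7.34, 7.89 and 6.64 CPM in ctrl-Treg cells, against 3.39, 3.20 and 3.60 CPM in Sora-Treg cells (log2 fold change -1.10 ± 0.14, SE, edgeR adjusted p = 2.73e-07). Tfb1m, which dimethylates the rRNA of the small subunit (log2 fold change -0.82), Fastkd2, an RNA-binding assembly factor (-0.67), and Noa1, a GTPase (-0.50), fell as well. Of 17 translation factors measured, 9 were lower and 1 higher (median -0.18), among them Lrpprc (-0.47), which stabilises mitochondrial mRNAs, Taco1 (-0.59), a translational activator of COX1, and the elongation factors Tsfm (-0.48) and Gfm1 (-0.25). Of 20 genes that charge mitochondrial tRNAs, 11 were lower and 1 higher (median -0.22). Qrsl1 (-0.87) and Gatc (-0.44), which make glutaminyl-tRNA, fell, whereas Lars2, for leucine, rose by 0.47. In the 16 genes of mitochondrial DNA and RNA synthesis and processing, 6 were lower and 2 higher (median -0.13), with Top1mt (-0.68), Supv3l1 (-0.50) and Pnpt1 (-0.22) lower and the DNA polymerase Polg higher (0.31).

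Other ribosomal and respiratory genes showed no such median shift on the same scale. Of 85 cytosolic ribosomal protein genes tested, 24 were higher and 26 lower, and of 79 nuclear genes for respiratory chain and ATP synthase subunits, 18 were higher and 22 lower, with a median log2 fold change of 0.003 in each list. With library totals these medians were both -0.11 and those of the members and of all tested genes were -0.28 and -0.12. The RNAs that mitoribosomes translate stood higher in Sora-Treg cells. Of 12 mitochondria-encoded protein genes tested, 11 were higher and 0 lower (median 0.50), and 11 were also higher with library totals, whereas DESeq2 called 8 and limma on FPKM called 6 with either pseudocount. The sum of the 13 such genes was 19226 ± 1057 CPM (SD, n = 3) in ctrl-Treg cells, against 26526 ± 3083 CPM in Sora-Treg cells, a change of 38% beside the change of -7.57% in the summed members. COX1, a catalytic subunit of complex IV, was higher by 0.50, ND4 by 0.51 and ND1 by 0.66 on the log2 scale, all subunits of the respiratory chain, and ND6, encoded on the opposite strand to the other 12, by 1.69. How mitochondrial RNA was captured or counted was not tested.

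**Figure D4:**
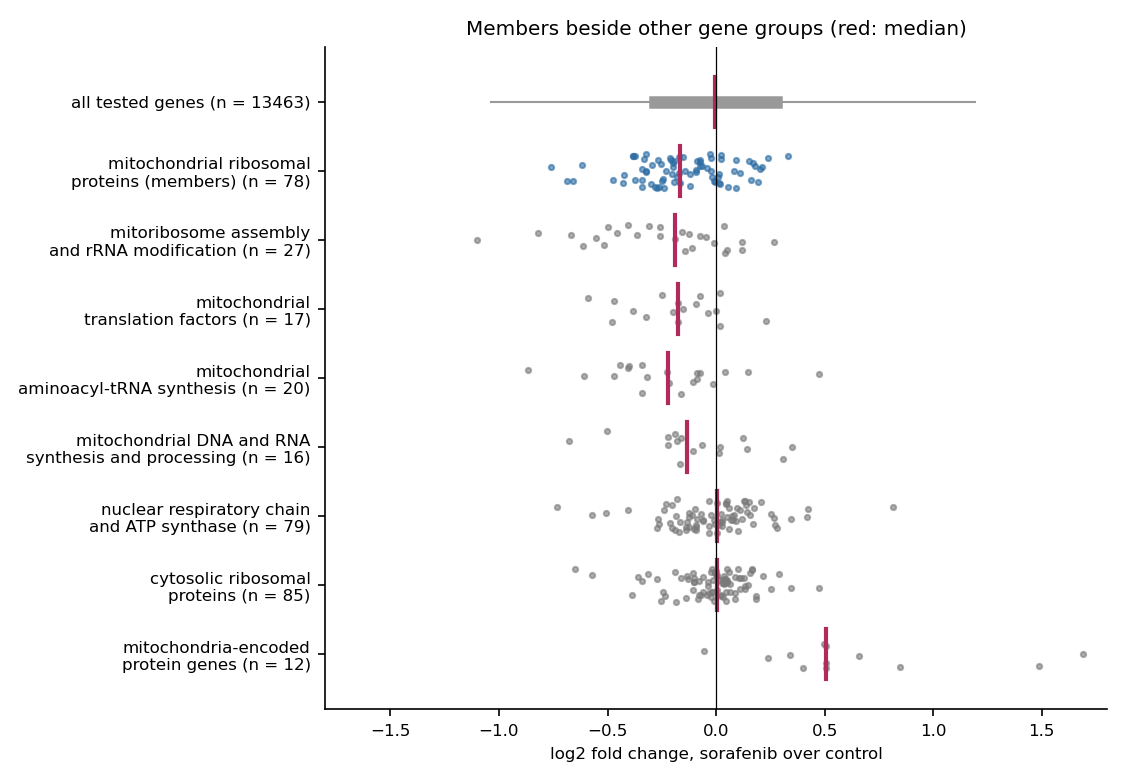
Log2 fold change of each gene in Sora-Treg over ctrl-Treg cells (x axis) for the members (blue) and for other gene groups (grey), with the median of each group as a red line; points are spread vertically only to be seen. All 13463 tested genes are drawn as a thick line from the 25th to the 75th percentile and a thin line from the 5th to the 95th. The median is -0.17 for the members, 0.003 for cytosolic ribosomal proteins and 0.50 for mitochondria-encoded genes.

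Among 9 regulators of mitochondrial biogenesis, 3 were higher and 4 lower. Gabpb1, a subunit of the ETS-family factor GABP, measured 106, 102 and 112 CPM in ctrl-Treg cells, against 66.6, 65.2 and 69.0 CPM in Sora-Treg cells. It fell by 37.2% with a wide gap between groups (log2 fold change -0.67 ± 0.04, SE, edgeR adjusted p = 2.51e-12). The coactivators Pprc1 and Ppargc1b fell by 0.45 and 0.95 on the log2 scale, and Myc, a transcription factor that drives ribosome production, rose by 0.36. Nrf1, a factor known to bind promoters of nuclear genes for mitochondrial proteins, had a log2 fold change of 0.08 and did not pass.

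Promoters were examined because NRF1, GABP and YY1 are known to act at nuclear genes for mitochondrial proteins. RefSeq (GRCm38.p6) gave 300 bases (250 before and 50 after the start) for 69 of the 78 members. The letters GCGCA and GCGC with any base between them (NRF1), CCGGAAG (ETS), AANATGGCG (YY1) and CACGTG (E-box) were searched on both strands. The NRF1 letters were in 18.8% of member promoters against 4.78% of all 27025 promoters and 10.3% of those of tested genes. The ETS letters were in 36.2% against 9.12% and 18.2%, the YY1 letters in 15.9% against 2.51% and 5.17%, and the E-box in 7.25% against 7.24% and 10%. CCAAT (39.1% of members, 37.9% of all promoters and 39.0% of those of tested genes) and TATAAA (5.80%, 14.2% and 7.27%) were searched as well. Split by call, the ETS letters were in 8 of 33 promoters of lower members, 2 of 6 of higher members and 15 of 30 of the others, and the NRF1 letters in 3, 3 and 7 of them. The YY1 letters were in 7, 0 and 4. These are matches of letters and not bound sites, and the differences between these groups were not tested.

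Below are the promoters of the 2 members with the largest decreases and the 2 with the largest increases among those whose promoter holds a match, in lower case with the matches in capitals, 5′ to 3′ along the gene. They are examples chosen for holding a match. Among the largest decreases, the promoters of Mrpl16, Mrpl47, Mrps6 and Mrps31 held no NRF1, ETS, YY1 or E-box letters. Nor did that of Mrpl48 among the increases. Mrps28, Mrps34 and Mrpl54 had no promoter in the set used. In Mrps27 the capitals mark an ETS match on the reverse strand and a YY1 match, in Mrpl42 a YY1 match, in Mrpl33 an ETS match and in Mrpl30 an NRF1 match on the reverse strand.
Mrps27 (chr13:99344536-99344835, plus strand): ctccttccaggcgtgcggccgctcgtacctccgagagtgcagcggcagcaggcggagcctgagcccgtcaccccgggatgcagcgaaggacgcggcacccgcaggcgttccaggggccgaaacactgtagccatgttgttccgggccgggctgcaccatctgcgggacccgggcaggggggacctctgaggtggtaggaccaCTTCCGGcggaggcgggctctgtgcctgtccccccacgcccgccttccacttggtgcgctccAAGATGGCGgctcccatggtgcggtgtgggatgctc
Mrpl42 (chr10:95501900-95502199, minus strand): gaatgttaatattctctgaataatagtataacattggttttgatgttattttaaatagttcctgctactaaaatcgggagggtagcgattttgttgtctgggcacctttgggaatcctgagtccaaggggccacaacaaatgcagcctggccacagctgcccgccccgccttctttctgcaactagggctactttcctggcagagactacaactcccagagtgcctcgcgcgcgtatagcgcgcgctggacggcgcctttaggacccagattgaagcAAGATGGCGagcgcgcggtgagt
Mrpl33 (chr5:31613701-31614000, plus strand): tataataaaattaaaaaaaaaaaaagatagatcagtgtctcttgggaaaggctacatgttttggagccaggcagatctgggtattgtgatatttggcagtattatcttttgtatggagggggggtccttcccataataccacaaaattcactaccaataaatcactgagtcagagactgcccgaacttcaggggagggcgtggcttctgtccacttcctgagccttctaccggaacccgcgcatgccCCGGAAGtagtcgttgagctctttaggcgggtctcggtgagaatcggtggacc
Mrpl30 (chr1:37890227-37890526, plus strand): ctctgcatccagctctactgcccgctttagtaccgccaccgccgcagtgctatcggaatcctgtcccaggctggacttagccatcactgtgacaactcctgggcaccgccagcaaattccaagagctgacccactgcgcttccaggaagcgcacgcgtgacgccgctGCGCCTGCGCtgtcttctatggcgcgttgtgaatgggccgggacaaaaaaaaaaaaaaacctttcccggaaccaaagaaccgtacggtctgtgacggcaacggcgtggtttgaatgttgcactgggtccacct

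The members were spread over 17 chromosomes, with 11 on chromosome 11, 8 on chromosome 17 and 7 on chromosome 6. For 32 of them another gene starts within 1000 bases on the opposite strand and is read the other way. Of these 32 neighbours, 15 were lower and 6 higher, and among all tested genes 29.9% were lower and 29.7% higher. Mrpl46 and Mrps11 are neighbours of each other. In 14 pairs both genes passed the test, and in 11 of these they moved in the same direction, 9 times down. The members were themselves more often lower than higher. Whether neighbours moved together more often than other genes was not tested. Mrps27 and its neighbour Ptcd2 both fell (log2 fold changes -0.62 and -0.21), as did Mrps12 and Sars2 (-0.37 and -0.40), a mitochondrial seryl-tRNA synthetase. Mrpl30 rose by 0.19 while its neighbour Mitd1 fell by 0.60 on the log2 scale. Exons of 24 members overlap those of another gene in the table, so reads counted without strand could belong to either gene. For Mrps6, Mrps24 and Mrps34 an overlapping gene lies on the same strand, where strand would not separate the reads. Mrpl13 (-0.32) lies in part opposite Mtbp, whose RNA was at 35.3 CPM in ctrl-Treg and 22.4 CPM in Sora-Treg cells. Mrpl47 lies opposite Actl6a over 452 bases, at 66.7 and 48.4 CPM, and opposite Ndufb5 over 616 bases, at 48.1 and 45.0 CPM. Mrpl14, which rose, lies in part opposite Tmem63b, at 71.8 and 54.1 CPM. Nr2c2, at 134 and 126 CPM, covers 4590 of the 6576 exonic bases of Mrps25 from the opposite strand.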

How the data were processed

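The study sequenced RNA of 3 ctrl-Treg and 3 Sora-Treg samples, grouped by their titles. Raw counts and FPKM values for each gene symbol were deposited. The study's methods name Bowtie2 and GRCm38, the submitters' processing notes fastp, HISAT2, HTSeq and GRCm39, and strand handling and annotation release are not given in the sources used here. Each FPKM equalled the count divided by a gene length and the library total. Counts were tested with edgeR 4.0.16 in R 4.3.3 (quasi-likelihood, TMM, filterByExpr, no covariate, Benjamini-Hochberg over 13463 genes). The standard error was the one the F statistic implies. An exact two-sided permutation test with 3 libraries a group gives p = 0.1 at best, and none was used. The biological coefficient of variation was 4.29%. Within-group pairs differed beyond sampling noise (chi-square per degree of freedom 3.36 to 5.91).

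The members and gene lists were chosen with earlier results of these data known, so neither is independent support for a direction, and no list was tested as a whole. Values per library are given for the 8 lowest and 8 highest log2 fold changes among called members without overlap, the 5 highest FPKM, the Mrps18 genes, Mrpl12, Mrpl45, Mrpl58, Mrps36 and the 5 subunits without an Mrp symbol. Up to 4 genes per other list, by adjusted p, were named, and other genes were named after their values were seen. A gene that this rule names is not reported here. Mtrfr and Ncr1, which are on the lists, were not analysed here. Gene positions are from RefSeq GRCm38.p6, and gene strands, exon overlaps and neighbours are from GENCODE M21 on GRCm38. Promoters are the first entry per gene in RefSeq GRCm38.p6, in which 97.5% of symbols were found. Alternatives used DESeq2 1.42.0, limma 3.58.1 on log2(FPKM + 1) and log2(FPKM + 0.1), other scalings and filters, a replicate block and each library left out. The fits were tested on simulated data.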

Additional observations from a re-analysis of the deposited data

How the results depend on the processing

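The main analysis gave 9 higher, 39 lower and a median of -0.17. The number of members higher was 5 with upper quartile scaling, 1 with library totals and 5 with a filter of at least 1 count in any sample. It was 1 with limma on log2(FPKM + 1) and on log2(FPKM + 0.1). Of all tested genes, these limma fits called 2716 higher and 5340 lower, and 2740 higher and 5359 lower. DESeq2 gave 6 higher and 37 lower members. It did not call Mrpl54, Mrpl14, Mrpl9, Mrpl27 or Mrpl1 (DESeq2 adjusted p from 0.0782 to 0.112). The number higher ranged from 4 to 9 when 1 library was left out. The number lower was 34 to 40 with 1 library left out and 37 to 55 otherwise. The median log2 fold change was -0.283 with library totals, -0.261 with limma on log2(FPKM + 1) and -0.281 with limma on log2(FPKM + 0.1), and -0.164 to -0.139 with 1 library left out. No fit made a member a DEG. Of the 27 members followed singly, 5 changed direction in some fit. Mrps21 was -0.0592 with library totals, and -0.0592 and -0.0601 with limma on log2(FPKM + 1) and log2(FPKM + 0.1). Mrpl9 was -0.0217, -0.0228 and -0.0232 in the same fits. Mrps18c was -0.0209 with upper quartile scaling and -0.0984, -0.0958 and -0.0975 in those fits, and Mrps36 was -0.0145, -0.0922, -0.0879 and -0.0908. With 1 library left out, Mrpl58 ranged from -0.0704 to 0.0463, Mrps18c from -0.0130 to 0.0375 and Mrps36 from -0.0771 to 0.0883. Apart from the scaling, the cause was not tested. Same-numbered libraries showed no sign of pairing (correlations of their deviations -0.0438, 0.0591 and 0.0299). Such correlations cannot show whether they shared mice or cultures, which the labels do not give. The replicate block gave 9 higher and 39 lower members, and all 48 calls were shared with the fit without it. Depth limits Mrps28 most, with 108 counts in its lowest library.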
